A study of Mus musculus with 6 samples.

Results

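The cytosolic ribosomal protein genes encode the proteins of the large and small subunits of the ribosome outside mitochondria. They were taken as every gene of the array whose platform symbol is Rpl or Rps with a number, Rplp with a number, or Rpsa, without the S6 kinases and without pseudogenes. This rule took in 78 of the 17658 genes that had a probe with a single symbol, and 115 of the 46116 probes. Transcript levels came from skin papillomas, benign tumours, of mice with (Atf2 wild-type) and without Atf2 (Atf2 knockout), both of mixed FVB and C57bl6 background. The animals developed their papillomas at about 9 months of age, after 1 application of the mutagen DMBA and 30 weeks of the tumour promoter TPA, and both genotypes had the same treatment. Total RNA of papillomas was pooled from 2 wild-type mice and, separately, from 3 knockout mice, and each pool, carrying the dye Cy3, was run on 3 Illumina bead arrays, all on the same chip. The sources used here do not say where the Atf2 deletion lies or whether every cell type carries it.

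A ribosome holds each of its proteins in about equal number, and cells make these proteins together with ribosomal RNA in proportion to their growth. Ribosomal protein mRNAs are short, abundant and stable, and most begin with a run of pyrimidines, the terminal oligopyrimidine tract or TOP motif, through which mTOR signalling and Larp1 control their translation. In skin the basal keratinocytes, which divide, are known for a high rate of protein synthesis. Atf2, a basic leucine zipper transcription factor, binds the cyclic AMP response element as a dimer.

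Because a pool's 3 arrays repeat the same RNA, every SD, SE and p-value below reflects technical spread between arrays, and the genotype itself has no replicate check. On the chip, positions A to C held the wild-type pool and D to F the knockout pool, so position and genotype cannot be told apart. Median raw intensity over all probes was 135.8 to 148.2 in the wild-type pool against 109.9 to 135.5 in the knockout pool, and 32.7% to 34.6% against 29.2% to 31.4% of probes exceeded background. Background was the mode of an array's intensities, and a probe counted as above it when more than 3 SDs higher, with the SD taken from values below the mode. Of 4 Atf2 probes, 3 were above background on no array, and the other, 2260348, gave 184.5, 176.2 and 186.3 in the wild-type pool against 171, 133.2 and 103 in the knockout pool (log2 difference -0.28, limma adjusted p = 0.109), so the targeted gene checked the labels only weakly. The keratinocyte markers Krt5 and Krt14 were above background on all 6 arrays.

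Other cell types differed between the pools in their markers. Of 6 fibroblast markers 3 fell, by at least 2-fold with a limma adjusted p under 0.05, and their summed raw intensity was 7931 to 8845 per wild-type array against 3034 to 4222 per knockout array. Of 4 skeletal muscle markers 2 fell, with sums of 1762 to 1907 against 633 to 1042. Among them only Acta1 was above background on every array. Both erythrocyte markers with a probe, Hba-a1 and Alas2, rose, with sums of 10417 to 10917 against 17531 to 20155. Of 7 keratinocyte markers, Krt10, a keratin of differentiating layers, rose. Trp63 differed by 0.40 (limma adjusted p = 0.00145) and Krt5 by 0.14. Krt14 differed by -0.07, Krt6a by -0.58 (limma adjusted p = 0.000125), Dsp by -0.43 and Krt1 by -0.27. Dsp was above background on 3 arrays only. The keratinocyte sums were 110755 to 115309 against 94163 to 112615. Of 2 macrophage markers with a probe Lyz2 fell (sums of 888 to 918 against 437 to 469). Of 3 neutrophil markers Retnlg rose by 2.41, with sums of 48782 to 50781 against 44821 to 49956. S100a8 (0.08) and S100a9 (0.07) made up most of those sums, which therefore say little about Retnlg. The 3 endothelial markers Pecam1, Cdh5 and Kdr gave log2 differences of 0.10, -0.20 and 0.15 (1074 to 1120 against 768 to 996). Kdr was above background on no array. Nucleated cells of every type make ribosomes, and the part of these shifts in any difference below was not tested. In RNA from whole papillomas, fewer cells of a type and less RNA per cell cannot be told apart.

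Of the 115 ribosomal protein probes, 96 were above background on all 6 arrays, 10 on some arrays and 9 on none. The filter on dim probes left 110 probes of 77 genes in the test. The remaining gene, Rps23rg1, a retrogene of Rps23, was not above background on any array. Rpl29, Rpl39l, Rpl3l, Rps19 and Rpsa were tested but also had no probe above background on all arrays. The 78 genes lay on 19 chromosomes with at most 10 genes on any of them, and 53 had a single probe. Probe sequences were not used here, and ribosomal protein genes have many processed pseudogenes in the genome, so signal from near-identical transcripts cannot be separated.

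As a group, these genes lay close to a difference of 0. The fit covered 23058 probes, and a probe passed when its limma adjusted p was under 0.05 and its difference 2-fold or more. Of the 110 ribosomal protein probes 4 fell in the knockout pool (3.64%) and 0 rose, where 4.88% of all tested probes passed, 3.90% lower and 0.984% higher, so the count of members was near the background. The median log2 difference, knockout minus wild type, was 0.016 over the member probes and 0.053 over all tested probes. By the brightest probe of each gene, 39 genes lay above 0 and 38 below, and 2 of 77 passed, Rpl7a and Rpl22l1 (2.60%, where 3.60% of 12096 genes passed). Counting any tested probe, Rps3 and Rps6 joined them, which made 5.19% where 6.66% of all genes passed.

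By limma's adjusted p alone, 17 member probes were lower and 15 higher in the knockout pool, together 29.1%. Of all tested probes 38.5% had an adjusted p under 0.05, 17.6% lower and 20.9% higher. The balance of directions depended on the scaling. Under 75th percentile scaling in place of quantile normalization, 12 member probes were lower and 25 higher, together 33.6%. Of all tested probes 15.9% were then lower and 25.9% higher. The normalized values of the pools did not overlap at 30 member probes that were lower (27.3%, where 20.6% of all tested probes were) and at 23 that were higher (20.9%, where 27.8% were). At an unadjusted p under 0.05 in limma, 29 member probes were lower and 23 higher, together 47.3%, where 45.8% of all tested probes passed that limit. These differences were mostly small. Within 0.5 on the log2 scale lay 100 of the 110 member probes (90.9%) and 81.8% of all tested probes.

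**Figure D1:**
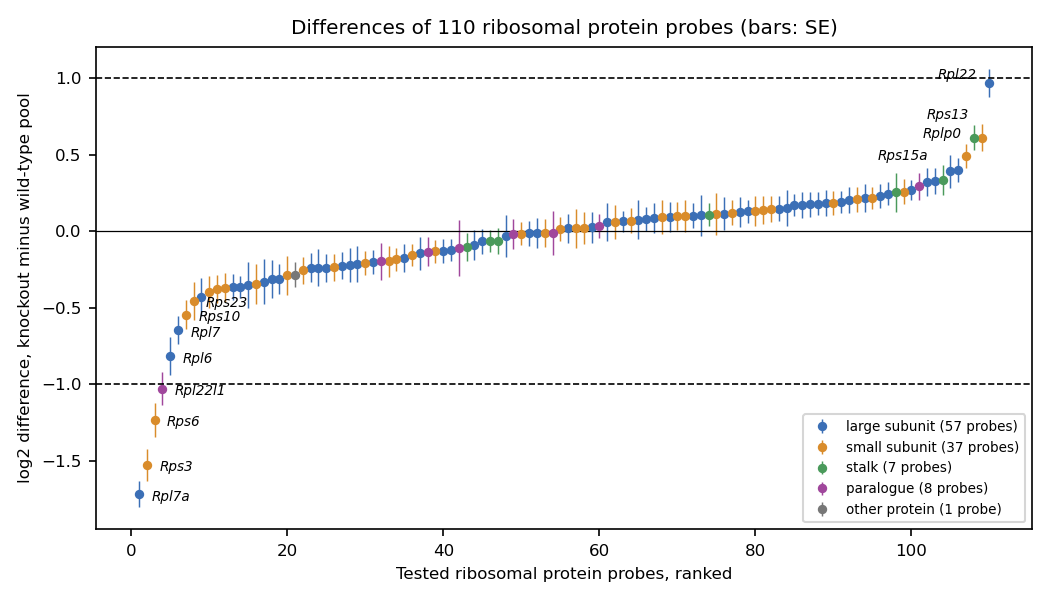
Log2 difference (knockout minus wild-type pool) of each of the 110 tested ribosomal protein probes, in order of size, with SE bars over technical arrays, coloured by role. Dashed lines mark 2-fold. All but 10 probes lie within 0.5 of 0, 4 lie below -1, and Rpl22 at 0.97 lies just under the upper line.

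The 2 subunits had similar medians. The 41 large subunit genes had a median log2 difference of 0.019 with 37 within 0.5, and the 26 small subunit genes had a median of 0.017 with 25 within 0.5. The 3 stalk genes, whose proteins form the arm that recruits elongation factors, had a median of 0.25. The 6 paralogues of ribosomal proteins had a median of -0.12. Past the threshold, 1 of the 57 tested large subunit probes fell, 2 of the 37 of the small subunit and 1 of the 8 of the paralogues. Over all tested probes 3.90% fell.

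Rpl7a, a protein of the large subunit, gave the largest difference of the group. Probe 5420458 showed raw values of 13036.5, 12894.5 and 14069.4 in the wild-type pool against 4051.5, 4217.3 and 2990.2 in the knockout pool. Every knockout array was far below every wild-type array, and the pools did not overlap. The raw mean was 13333 ± 641 (SD, n = 3) against 3753 ± 666 (SD, n = 3), and the normalized level was 3.29-fold lower in the knockout pool (log2 -1.72, SE 0.08, limma adjusted p = 1.73e-08). Rpl7a had no second probe with which to compare this.

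The start of Rpl7a carries a long pyrimidine tract, and it is printed here with the starts of the other 3 genes that had a probe past the threshold and of Rpl22. Each window runs from 30 bases before the RefSeq transcript start to 20 bases after it, 5′ to 3′ on the gene's strand (RefSeq, GRCm38.p6), and capitals mark its longest run of C and T. They are chr2:26910777-26910826 (+) for Rpl7a, chr7:99483690-99483739 (-) for Rps3, chr4:86857348-86857397 (-) for Rps6, chr3:28805478-28805527 (+) for Rpl22l1 and chr4:152325696-152325745 (+) for 1 of the RefSeq starts of Rpl22.
Rpl7a: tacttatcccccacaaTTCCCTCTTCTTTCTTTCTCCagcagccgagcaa
Rps3: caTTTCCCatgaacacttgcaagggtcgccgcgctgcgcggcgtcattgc
Rps6: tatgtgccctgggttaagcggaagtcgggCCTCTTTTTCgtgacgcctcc
Rpl22l1: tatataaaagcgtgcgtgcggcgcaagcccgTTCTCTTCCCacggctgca
Rpl22: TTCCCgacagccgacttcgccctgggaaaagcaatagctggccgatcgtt
The run was 21 bases long in Rpl7a, 10 in Rps6 and in Rpl22l1, and 6 in Rps3. A RefSeq start can differ from the start used in papilloma, so a short run here says only that these letters are not in this window.

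Rps3, a small subunit protein at the entry of the mRNA channel that also acts in DNA repair, was read by 2 probes that gave different answers. Probe 1570017 showed raw values of 13022.2, 11987.3 and 12553 in the wild-type pool against 4461.6, 3533.3 and 3761.9 in the knockout pool. It fell 2.88-fold with no overlap of the pools (log2 -1.53, SE 0.10, limma adjusted p = 2.48e-07). Probe 2370170 showed raw values of 17576.2, 17496 and 18124.2 in the wild-type pool against 16863.7, 16108.8 and 15255.5 in the knockout pool, and after normalization the pools overlapped (log2 -0.01, limma adjusted p = 0.944). Both probes were far above background on every array, and together they gave no single direction for Rps3.

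Rps6, the small subunit protein that S6 kinases phosphorylate, showed the same kind of split to a lesser degree. Probe 101570750 showed raw values of 7069.4, 7900.6 and 6511.3 in the wild-type pool against 2781, 2557.9 and 2703.7 in the knockout pool. It fell 2.35-fold, and the pools did not overlap (log2 -1.23, SE 0.11, limma adjusted p = 2.76e-06). Probe 2060168 read 7824.9, 7019.5 and 5939.5 against 6436.1, 4281 and 4085.3, which overlapped (log2 -0.34, SE 0.13, limma adjusted p = 0.057). The remaining probe, 106370373, was above background on no array.

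**Figure D2:**
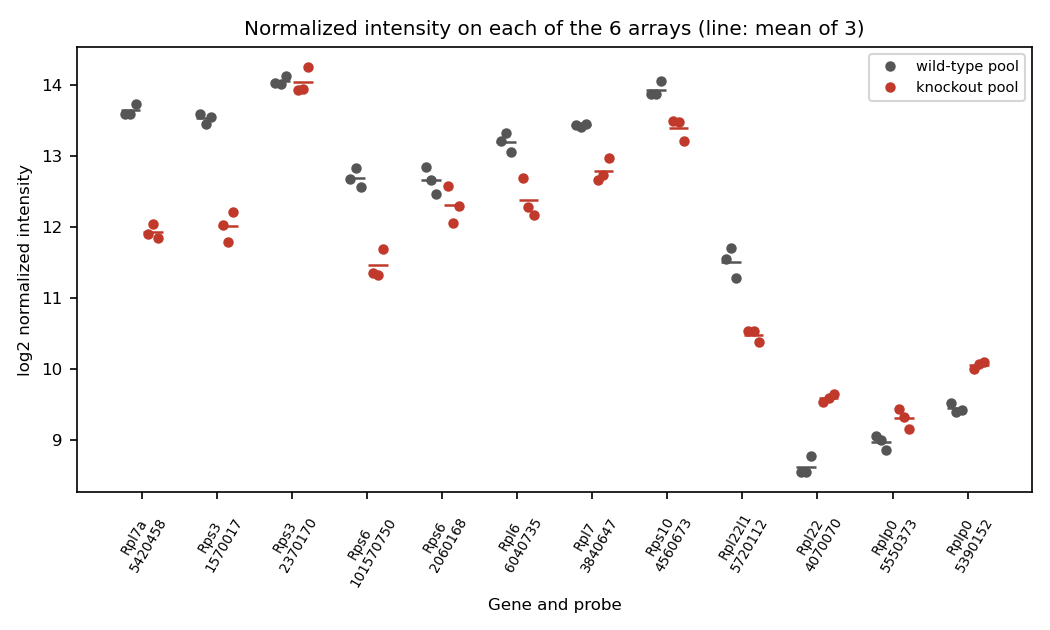
Normalized log2 intensity of 12 probes on each array, with a line at the mean of the 3 arrays of a pool (grey, wild-type; red, knockout). The pools are apart for Rpl7a and for 1 probe each of Rps3 and Rps6, while the other Rps3 probe and the other Rps6 probe overlap, and Rpl22 and Rpl22l1 differ in opposite directions; heights of different probes are not comparable.

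Across the group, 25 genes had more than 1 probe, and 20 had more than 1 above background on all arrays. The log2 differences of a gene's probes spanned a median of 0.18, and 13 of the 20 genes spanned under 0.25. Rpl10a, a large subunit protein, was the most even, with -0.37 and -0.36. The span was over 0.5 in 4 genes, at 1.52 in Rps3, 0.89 in Rps6, 0.56 in Rpl23 and 0.54 in Rps13, and over 1 in Rps3 only. In Rps13, a small subunit protein, the bright probe 1570364 gave 0.07 and the dim probe 102970711 gave 0.61.

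**Figure D3:**
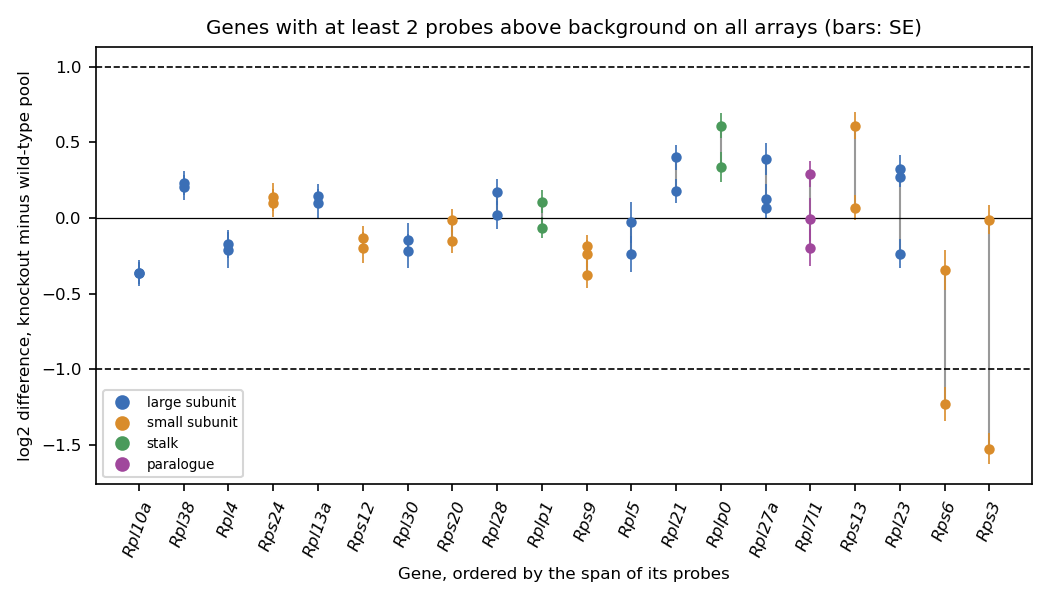
Log2 differences (SE bars, technical arrays) of the probes above background on all arrays, for the 20 ribosomal protein genes with at least 2 of them, ordered by the span between probes. Spans stay under 0.25 in 13 genes and reach 0.89 in Rps6 and 1.52 in Rps3; dashed lines mark 2-fold.

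Rpl22 and its paralogue Rpl22l1 differed in opposite directions. Rpl22 is a large subunit protein that mice can live without, and in mouse cells it is known to repress Rpl22l1, the protein that can take its place. Rpl22l1 probe 5720112 showed raw values of 3279.7, 3612.1 and 2649.5 in the wild-type pool against 1601.1, 1491.6 and 1075.4 in the knockout pool. Every knockout array was below every wild-type array, and the level fell 2.04-fold (log2 -1.03, SE 0.11, limma adjusted p = 1.10e-05). This call sat at the 2-fold limit and was lost without knockout array 3 (-0.98) and without wild-type array 2 (-0.93). Rpl22 probe 4070070 read 459, 465.6 and 510.1 against 806, 780.1 and 643.6, with every knockout array above every wild-type array. Its log2 difference of 0.97 (SE 0.09, limma adjusted p = 4.03e-06) missed the 2-fold limit. The 2 differences were 2.00 apart on the log2 scale. Each gene had 1 probe, and neither probe was set against the other in level.

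The other members with the lowest differences belonged to both subunits and did not reach 2-fold. Rpl6, a large subunit protein, showed raw values of 10028.7, 10849.6 and 9110.1 in the wild-type pool against 7005, 4976.4 and 3684.1 in the knockout pool (log2 -0.82, SE 0.12, limma adjusted p = 0.000212). The knockout arrays spread widely at this probe, although all lay below the wild-type arrays. Rpl7, also of the large subunit, was tight at 11750.3, 11602 and 11656.6 against 6837.6, 6826.5 and 6610.8 (log2 -0.65, SE 0.09, limma adjusted p = 0.000112). Rps10, at the head of the small subunit, read 15806.6, 15945 and 17546.2 against 11964.2, 11572.5 and 7723.1 (log2 -0.54, SE 0.10, limma adjusted p = 0.000638), again without overlap.

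The 3 stalk genes differed among themselves. Rplp0, the anchor of the stalk, read 840, 788.5 and 773.2 against 1102, 1077.7 and 875.8 at probe 5390152 (log2 0.61, SE 0.08, limma adjusted p = 8.41e-05). At probe 5550373 it read 622.7, 617.5 and 537.9 against 752.1, 646.7 and 456.8, where raw values overlapped and normalized values did not (log2 0.34, limma adjusted p = 0.016). The knockout values were thus the higher ones at both Rplp0 probes, under 2-fold. Rplp1 and Rplp2 form the dimers that reach out from Rplp0. The probes of Rplp1 gave 0.11 and -0.06 and overlapped between the pools. The 3 Rplp2 probes gave 0.25, -0.06 and -0.10, of which the first was above background on all arrays and the last on none.

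On the higher side, 3 further genes were among the 5 with the largest positive difference, and none reached 2-fold. Rps15a, a small subunit protein, gave 0.49 at raw intensities of 164.4 to 220.7 on all arrays, close to background. Rpl36a, a large subunit protein, read 18569.2, 18915.3 and 19700.4 against 21671.9, 21697.6 and 20718.8 without overlap (log2 0.33, limma adjusted p = 0.0093). Rpl23, a large subunit protein that can also bind and inhibit Mdm2, gave 0.27 at its bright probe 4850435, 0.32 at the dim probe 5220280 and -0.24 at probe 6450673. Its direction therefore depended on the probe.

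The brightest probes of the group had small differences. Rpl41, a very short basic peptide of the large subunit, showed raw values of 41322.8, 42257.4 and 42433.7 in the wild-type pool against 50893.7, 50831.9 and 34151 in the knockout pool. In these raw values knockout array 3 was the lowest of the 6 and the other knockout arrays the highest. The normalized log2 values, 15.28, 15.28 and 15.40 against 15.62, 15.54 and 15.34, overlapped (log2 difference 0.18, limma adjusted p = 0.111). Rps14, a small subunit protein of the platform where mRNA leaves, gave 0.12, and the bright probes of Rps20, at the head of the small subunit, gave -0.01 and -0.16.

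Of the 258 tested probes with a mean raw intensity of 10000 or more, 55 (21.3%) were ribosomal protein probes, which made up 0.477% of all tested probes. This limit was chosen after the values had been seen, and because it is set on the mean of both pools, a probe that fell far can drop below it. Brightness on an array depends on the probe as well as on the transcript. The log2 differences of the 55 ran from -0.54 to 0.33 with an SD of 0.21, and 54 of them (98.2%) lay within 0.5. Of the 203 other bright probes 153 (75.4%) lay within 0.5, with an SD of 0.49. Past the threshold in limma's test were 0 of the 55 members and 8 of the 203 others, and 3.10% of all 258. At an unadjusted p under 0.05, 12 of the 55 members were lower and 12 higher, together 43.6%, where 51.9% of the 258 passed that limit.

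These counts leave out 6 member probes that exceeded 10000 in the wild-type mean only, among them those of Rpl7a and Rpl7 and Rps3 probe 1570017. With the limit set on the wild-type mean alone, added after seeing the data, 61 member probes were bright, and 2 of them fell, of Rpl7a and Rps3 (3.28%, where 5.78% of the 277 probes above that limit passed). Their log2 differences ran from -1.72 to 0.33, with an SD of 0.36, and 57 of the 61 (93.4%) lay within 0.5. Of the 216 other probes above that limit 158 did (73.1%), with an SD of 0.68. A limit on the wild-type pool alone leaves out probes that were bright in the knockout pool only.

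**Figure D4:**
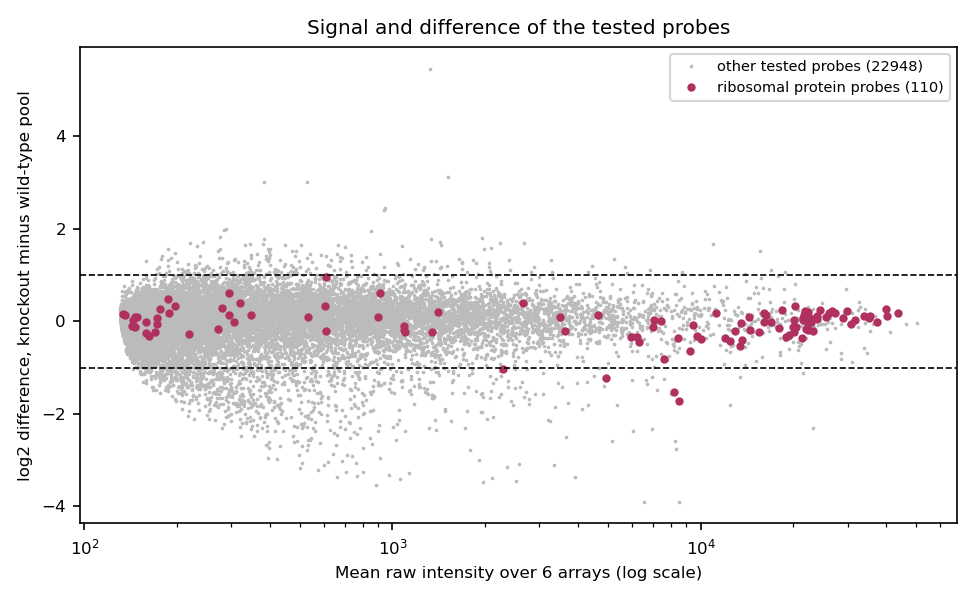
Log2 difference against mean raw intensity (log scale) for 22948 other tested probes (grey) and the 110 ribosomal protein probes (red); dashed lines mark 2-fold. At mean intensities of 10000 or more the 55 member probes lie between -0.54 and 0.33, and the lowest member probes, of Rpl7a and Rps3, lie just left of that limit because their mean includes the knockout arrays.

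Knockout array 3 stood apart at part of the bright members. At 10 of the 55 bright member probes (18.2%) it lay more than 0.4 on the log2 scale below the mean of the other knockout arrays, by up to 0.68, where 12 of the 203 other bright probes did (5.91%). These were probes of Rpl3, Rpl5, Rpl10, Rpl26 and Rpl27 of the large subunit, Rplp2 of the stalk, and Rps4x, Rps21, Rps27 and Rps28 of the small subunit. On each of the other 5 arrays 0 or 1 member probe lay as far below its pool. The distance of 0.4 was chosen after the values had been seen, and this array also had the lowest median intensity.

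Without knockout array 3, 25 member probes were lower and 26 higher by limma's adjusted p alone, against 17 and 15 with all arrays. Together these were 46.8% of the members tested, where 44.4% of all tested probes passed. Other arrays moved these counts as well, to 14 lower and 9 higher without wild-type array 1, where 29.9% of all probes passed, and to 22 and 11 without knockout array 2, where 35.7% did. Rps28 moved from 0.11 to 0.31, Rpl27 from 0.10 to 0.29 and the bright Rplp2 probe from 0.25 to 0.42, while Rpl10 moved from -0.33 to -0.10 and Rpl26 from -0.43 to -0.26. Rpl7a was at -1.68, the lower Rps3 probe at -1.63 and the lower Rps6 probe at -1.35 without it.

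**Figure D5:**
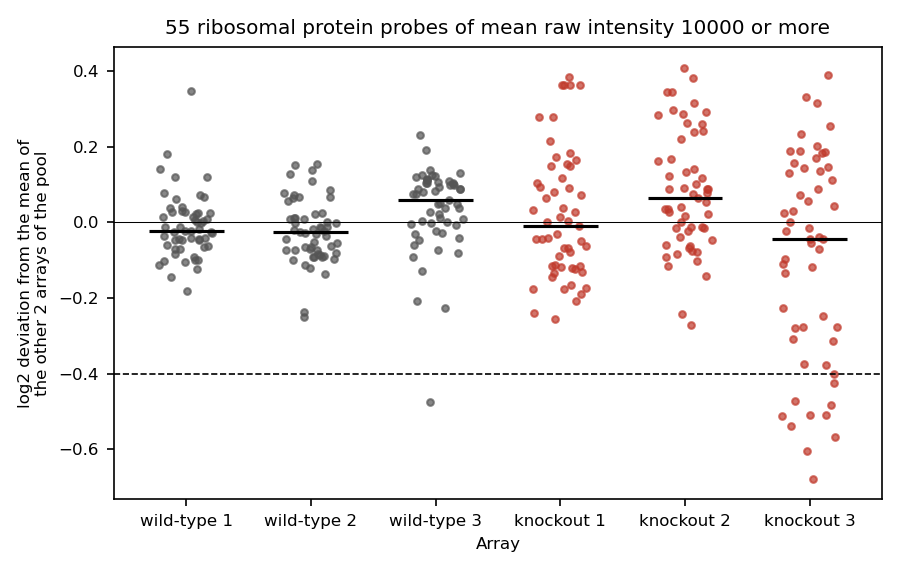
Deviation of each array from the mean of the other 2 arrays of its pool, in log2 units, at the 55 ribosomal protein probes with a mean raw intensity of 10000 or more; points are probes with random sideways shift, solid bars are medians, and the dashed line marks -0.4. On knockout array 3, 10 probes lie below the line, down to -0.68.

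The paralogues and the proteins that only share the symbol mostly had small differences. Rps27l, a paralogue of Rps27 that p53 induces, read 7101.7, 7527.7 and 7414.5 against 7205.8, 6904.6 and 6074.7, and the normalized pools overlapped (log2 0.03, limma adjusted p = 0.78). The muscle paralogue Rpl3l gave -0.02 and the paralogue Rpl39l, known from testis, gave -0.13, both near background. Rpl36al gave -0.11 with an SE of 0.18, the widest of these. Rpl7l1 gave 0.29, -0.20 and -0.01 at its 3 probes. Rps19bp1, a binding partner of Rps19 and no ribosomal protein, gave -0.28 (limma adjusted p = 0.0155), with raw values of 260.9, 248.7 and 272.6 against 200.5, 176.1 and 153.3.

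Genes that work with the ribosomal proteins were read from lists chosen for their roles. Among 11 tested partners of the ribosome and other TOP mRNA genes, 0 passed by the brightest probe in limma's test, with a median log2 difference of -0.10. At an unadjusted p under 0.05 in limma, 5 were lower and 2 higher, where 45.8% of all tested probes passed that limit. Fau, which encodes a small subunit protein fused to a ubiquitin-like domain, gave 0.13. Counting any probe, 4 of the 11 genes passed, all by a probe lower in the knockout pool, where 6.66% of all genes passed by any probe. A gene with more tested probes has more ways to pass by any probe, and these 4 genes had 2 to 4 each. The same limit holds for the any-probe counts of the lists below. Eef2, the translocation factor of elongation, repeated the split seen in Rps3: its brightest probe gave -0.19 and 2 others gave -3.37 and -3.26.

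By the brightest probe 3.60% of all genes passed. Of 34 tested initiation factors, Eif3b, the scaffold subunit of eIF3, fell (-1.77), and the median was -0.10. Counting any probe, 8 passed, where 6.66% of all genes did. Among the 8 was Eif5a, which helps ribosomes past difficult peptide bonds, at -3.39 on 1 probe and -0.14 on its brightest. Of 42 ribosome biogenesis genes, 3 fell by the brightest probe, which were Nop56 (-1.85) and Nhp2 (-1.43), both proteins of small nucleolar RNPs, and the nuclease Nob1 (-1.08), with a median of 0.17. By any probe 9 of the 42 passed, and 2 of these did so by a probe that rose, Nmd3 (1.14), an export adaptor of the large subunit, and the helicase Ddx21 (1.09). The brightest probes of Nmd3 and Ddx21 gave 0.17 and 0.31 and did not pass. Among 13 genes of RNA polymerase I, which transcribes ribosomal RNA, 0 passed in limma's test by the brightest probe and 1 by any probe, Polr1d (-1.50), with 2 lower and 6 higher at an unadjusted p under 0.05. Of 18 regulators and ribosomal protein kinases, Larp1, the TOP mRNA binding protein, fell at its brightest probe (-1.18) and was the 1 gene to pass by any probe. Of the 3 tested Larp1 probes no other passed. By the brightest probe Mtor gave -0.15, Rptor 0.27 and Mlst8 0.76 (limma adjusted p = 2.82e-05 for Mlst8). Of 74 mitochondrial ribosomal protein genes 3 fell, with Mrps18b (-1.45) and Mrps11 (-1.27) the lowest, 10 passed by any probe, and the median was 0.05. None of these lists had a rise past the threshold by the brightest probe. Over all 12096 genes the median was 0.077.

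RefSeq promoter windows from 250 bases before to 50 after the start were at hand for 64 of the 78 genes and for 27025 genes in all. The full cyclic AMP response element TGACGTCA, which reads the same on both strands, was in the window of 4 member genes (6.25%) and of 2.03% of all genes. Its core TGACG, searched on both strands and contained in the full site, was in 30 member genes (46.9%) and 23.0% of all. The AP-1 site TGACTCA, also on both strands, was in 2 member genes (3.13%) and 5.95% of all. Motifs of other factors, searched on both strands, were also more frequent in the member genes: the ETS core CCGGAAGT was in 12 (18.8%) and 4.31% of all, and the YY1 core AAGATGGC in 6 (9.38%) and 3.19% of all. The TATA motif TATAAA was in 7 (10.9%) and 15.7% of all. A run of at least 8 C or T within 25 bases of the start was in 33 member genes (51.6%) and 22.3% of all.

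The 4 windows with the full element are shown because Atf2 binds that element. Capitals mark TGACGTCA, each sequence is 5′ to 3′ on the plus strand, which is the strand of the gene, and the element began 24 bases before the start in Rpl13, 134 in Rpl26, 97 in Rpl27a and 57 in Rps9. The positions (GRCm38.p6, RefSeq) are chr8:123102310-123102349, chr11:68901416-68901455, chr7:109519082-109519121 and chr7:3703968-3704007.
Rpl13: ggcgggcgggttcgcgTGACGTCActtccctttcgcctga
Rpl26: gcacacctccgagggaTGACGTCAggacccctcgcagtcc
Rpl27a: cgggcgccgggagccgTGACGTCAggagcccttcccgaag
Rps9: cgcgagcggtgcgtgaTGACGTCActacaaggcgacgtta
By the brightest probe these 4 genes gave log2 differences from -0.43, in Rpl26, to 0.22, in Rpl13, with a median of -0.086, and 0 of them passed limma's test with the size limit. The 59 tested genes with a window that lacked the element had a median of 0.020. The 32 tested genes with a pyrimidine run had a median of 0.020 and the 31 without it 0.063. A match of letters is no measured binding site.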

How the data were processed

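Per the file headers, the authors deposited 1 raw linear intensity per probe for each array, and their table holds log2 values of the same arrays. The submitters' processing notes name BeadStudio 3, and how the authors normalized their deposited log2 values was not stated. The titles gave each of the 6 arrays its genotype. Raw intensities were corrected with limma's normexp (offset 50), which shrinks differences of dim probes, converted to log2 and quantile-normalized. The last step gives each array the same distribution of values, so it can reduce a shift that many bright probes share. Probes above the median mean log2 intensity were tested (23058 of 46116) in limma 3.58.1 under R 4.3.3 (lmFit, eBayes with an intensity trend), two-sided, with Benjamini-Hochberg adjustment over all of them. A call needed an adjusted p under 0.05 together with a log2 difference of 1 or more in size. Levels are not compared between probes. The number of arrays limits precision.

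Genes were named from the platform annotation: 29534 probes had 1 symbol, 11 several and 16571 none, and the 78 member symbols matched RefSeq (GRCm38.p6) unchanged. The tested probe of highest mean signal stood for a gene. Named genes are those past the threshold, the 5 highest, 5 lowest and 5 brightest, genes with probes spanning over 1 log2 unit, the stalk and the paralogues. Genes named outside this rule, such as Rps13, Rpl10a, Eef2 and those at which knockout array 3 was low, were chosen after their values were seen. Members and lists were chosen with earlier results of these data known. The fit was also run on simulated arrays with known changes in probes well above background and the same technical spread for every probe. That run does not cover dim probes, an outlying array or differences between animals. Alternatives were other background corrections, scalings, filters, variance priors, the authors' values, a replicate block and leaving out each array.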

Additional observations from a re-analysis of the deposited data

How the results depend on the processing

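The falls of Rpl7a, of 1 Rps3 probe and of 1 Rps6 probe passed the threshold in every alternative tried, and their sizes stayed within -1.77 to -1.60, -1.63 to -1.42 and -1.35 to -1.16. Between 3 and 5 member probes passed. Rpl22l1 missed the 2-fold limit under 75th percentile scaling (-0.962) and in the authors' values (-0.9997), and Rpl22 passed it with an offset of 16 (1.04), with the background mode subtracted (1.15) and without wild-type array 3 (1.04). The count of member genes was 1 under 75th percentile scaling and in the authors' values, 4 by any probe, and 1 to 3 when an array was left out. Over all tested probes the count was 748 in the authors' values, 2021 with the mode subtracted, 1648 with an offset of 16, 656 where only probes exceeding background on every array were tested, and 1099 to 1187 when an array was left out.

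The median of the member probes was 0.093 under 75th percentile scaling, which moved that of all probes from 0.053 to 0.131, -0.011 with the mode subtracted, -0.010 with no filter, and -0.053 to 0.027 when an array was left out. The list medians moved as follows. Under 75th percentile scaling they were 0.097 for mitochondrial ribosomal proteins, 0.140 for regulators, -0.031 for ribosome partners and -0.063 for initiation factors. With the mode subtracted they were 0.132 for regulators, 0.206 for biogenesis and -0.062 for partners. With no filter they were 0.124 for polymerase I and 0.122 for biogenesis, among probes above background on all arrays 0.156 for polymerase I and -0.012 for regulators, and with an offset of 16 it was -0.144 for partners. Leaving out an array gave -0.0021 to 0.198 for polymerase I, 0.012 to 0.078 for mitochondrial ribosomal proteins, 0.0090 to 0.067 for regulators, 0.132 to 0.169 for biogenesis, -0.164 to -0.052 for partners and -0.093 to 0.013 for initiation factors.

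Under 75th percentile scaling 8 of the 110 member probes changed sign, among them 5 of the named genes: Rpl3l 0.073, Rplp1 0.0078, Rplp2 0.03, Rps20 0.11 and Rps3 0.11. Leaving out an array in turn changed the sign of 24 member probes, none over 0.116 in size with all arrays. Among the named genes there were 7, with ranges of -0.29 to 0.10 for Rpl36al, -0.069 to 0.079 for Rpl3l, -0.16 to 0.19 for Rpl7l1, -0.070 to 0.017 and -0.013 to 0.19 for Rps20 probes, -0.00068 to 0.054 for Rps27l and -0.12 to 0.047 for the higher Rps3 probe. The cause of these shifts was not tested.

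Same-numbered arrays shared only a number: their deviations correlated at 0.106, -0.130 and 0.043, and 1 of 3 knockout arrays was closest to its own number. With the replicate number as a block, the same 4 member probes passed, and 1128 of all probes did against 1126 without it. By limma's adjusted p alone, 21 member probes were lower and 16 higher with the block, against 17 and 15 without it. Together the 21 and 16 made 33.6%, where 37.7% of all tested probes passed.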
